A study of Homo sapiens with 6 samples.

Results

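The genes described here are 36 members of the NRF2 antioxidant pathway and of the glutathione and thioredoxin systems, taken by symbol from a deposited table of 57150 genes. SRXN1 was the only symbol with more than 1 row, and its row with the higher mean was kept. The samples were H358 cells, an established epithelial line of human lung cancer origin (non-small-cell). RBM47, an RNA-binding protein, had been lowered with lentiviral short hairpin RNAs in 3 libraries, and 3 others came from a control knockdown, all described as biological replicates. Hairpin sequences, clones and the time after transduction are not stated in the labels. The values are FPKM, fragment counts scaled to transcript length and to library size, from stranded libraries of polyadenylated RNA. How library size was set is not given in the sources.

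NRF2, encoded by NFE2L2, is a transcription factor that the adaptor KEAP1 marks for degradation in unstressed cells. Oxidants and electrophiles release it, and it then binds antioxidant response elements together with a small MAF protein, where the repressor BACH1 competes for the same sites. Its targets make and recycle glutathione and thioredoxin, supply NADPH, store iron and detoxify quinones and other reactive compounds. In lung cancers the pathway is known for activation through changes in KEAP1 or NFE2L2. Much of its control acts on the NRF2 protein, which RNA levels do not show.

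RBM47 was at 12.0, 13.4 and 13.5 FPKM after RBM47 knockdown, against 85.2, 92.4 and 87.9 FPKM under the control knockdown, so that 14.6% of the control mean was left. The number of fragments per library is unknown, and the relative depth read from the lowest values was 1 to 1.06 in the knockdown and 1.09 to 1.16 in the control libraries. All 8 epithelial markers checked were expressed, with means of 99.4 (ESRP1) to 787 FPKM (KRT19). By the test used below 6 of the 8 were lower in the knockdown, against 6.34% of all tested genes. The summed level of the 8 markers was 3381 to 3473 FPKM in the knockdown and 4005 to 4284 FPKM in the control libraries. Of the markers of other cell types, 2 of 7 for fibroblasts (COL1A1 and LUM), 1 of 5 for endothelium (KDR) and 1 of 7 for leukocytes (CD68) reached a mean of 1 FPKM, and none of the 4 passed that test. The summed level was 27.1 to 35.3 against 32.6 to 36.0 FPKM for fibroblast markers, 1.52 to 1.78 against 1.96 to 2.37 FPKM for endothelial markers and 24.9 to 32.6 against 33.1 to 36.3 FPKM for leukocyte markers, knockdown against control. CLDN5 and ITGAM were listed at 0 in every library, and PTPRC, which marks leukocytes, had at most 0.122 FPKM. CD14, also a leukocyte marker, ran from 0.549 to 1.31 FPKM, and its mean did not reach 1 FPKM. PECAM1 had been chosen for endothelium too, but was not found by symbol and is not among the 5. The part of these markers in the results was not tested.

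Some of the genes hold the core letters of an antioxidant response element near their start, and the sequences below are shown so that those of genes that fell can be set beside those of genes that did not pass. The core searched was TGACNNNGC on both strands, in RefSeq windows of GRCh38.p14 from 250 bases before to 50 bases after each start. Where the core holds TGACTCA it overlaps the AP-1 motif, as in ME1 and PIR. Windows were found for 26 of the 36 genes, and 10 of the 26 (38.5%) held the core in at least 1 window, against 16.1% of 27305 genes. Windows of ABCC1, ABCC3, FTH1, GSR, GSS, HMOX1, MAFK, PRDX1, PRDX6 and TRIM16L were not used here. By window the shares were 30.6% of 36 and 13.3% of 35116. These genes had been chosen for a known link to NRF2 or its pathway, and the share is a description. Each run below is the 160 bases before a start, 5′ to 3′ on the strand of the gene. A core that lies whole within the run is in capitals, written TGACNNNGC or as its reverse complement. The first TXNRD1 window also holds TGACGGAGC, which crosses the start, and the ME1 window holds TGACGGTGC after the start. Neither of these further cores is marked.
TXNRD1, first window, chr12:104215619-104215778, plus strand: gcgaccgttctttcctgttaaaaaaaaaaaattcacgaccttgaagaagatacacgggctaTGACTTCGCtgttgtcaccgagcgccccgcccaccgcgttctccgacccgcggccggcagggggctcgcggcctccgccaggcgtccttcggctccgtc
TXNRD1, second window, chr12:104286872-104287031, plus strand: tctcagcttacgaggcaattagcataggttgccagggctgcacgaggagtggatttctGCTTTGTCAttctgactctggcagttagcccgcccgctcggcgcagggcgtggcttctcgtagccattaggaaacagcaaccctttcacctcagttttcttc
CBR1, chr21:36069864-36070023, plus strand: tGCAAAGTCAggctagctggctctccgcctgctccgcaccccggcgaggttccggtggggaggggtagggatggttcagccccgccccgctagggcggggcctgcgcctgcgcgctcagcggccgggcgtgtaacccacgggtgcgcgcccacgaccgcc
MAFF, chr22:38201834-38201993, plus strand: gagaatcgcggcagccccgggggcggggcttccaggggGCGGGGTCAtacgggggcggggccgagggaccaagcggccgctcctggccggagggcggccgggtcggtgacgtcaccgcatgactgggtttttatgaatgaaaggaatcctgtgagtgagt
GCLM, chr1:93909431-93909590, minus strand: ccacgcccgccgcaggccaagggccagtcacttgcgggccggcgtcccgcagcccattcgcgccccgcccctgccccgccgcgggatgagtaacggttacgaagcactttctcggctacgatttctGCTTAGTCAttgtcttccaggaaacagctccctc
ME1, chr6:83431052-83431211, minus strand: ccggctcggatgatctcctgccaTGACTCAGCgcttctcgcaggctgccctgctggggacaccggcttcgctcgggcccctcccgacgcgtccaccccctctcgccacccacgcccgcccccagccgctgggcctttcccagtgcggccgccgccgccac

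Levels of TXNRD1, CBR1 and MAFF fell in the knockdown, whereas GCLM and ME1 did not pass the threshold. Of the 13 members that fell and had a window, 4 held the core (PGD was the other), and so did 5 of the 11 tested members that did not pass, which included KEAP1. GPX2, the remaining gene with the core, was too low to be tested. A match says that these letters occur in the window and nothing of what binds there. A window without the core says nothing of sequence beyond 250 bases before or 50 bases after a start.

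Across the whole set, RNA levels moved downward or did not pass the test, and none rose. A mean of 1 FPKM or more was required for testing, which left out GPX2 and ABCC2 and kept 34 of the 36. Of the 34, 15 were lower in the knockdown, 0 were higher and 19 did not pass (limma on log2(FPKM + 1), Benjamini-Hochberg adjusted p under 0.05 over 14419 genes). The 15 were 44.1% of the tested members, while 6.34% of all tested genes were lower and 5.10% higher. These shares depend on the level required. At a mean of at least 5 FPKM, 16 of 33 members and 981 of 10458 genes were lower. Over all 14419 genes 11.4% passed in either direction. Fewer cells with a transcript and less of it per cell cannot be told apart in bulk RNA. NFE2L2, TALDO1, ME1, FTL and EPHX1 did not pass, though their knockdown values all lay below the controls, as in 16.8% of all tested genes.

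The 3 knockdown values lay below the 3 control values in 20 of the 34 genes (58.8%, against 16.8% of all tested genes) and above them in 0 (17.3% of all tested genes). The log2 fold change was negative in 28 (48.8% of all tested genes were negative) and positive in 6, with a median of -0.20, beside 0.006 over all tested genes. In the knockdown libraries the median distance of the 34 genes from their control mean was -0.20, -0.16 and -0.26 on the log2 scale for replicates 1, 2 and 3. The sizes were modest, from -0.69 (OSGIN1 and GCLC) to 0.14 (GSS). Together the 36 genes made up 0.936 to 0.993% of all FPKM in the knockdown libraries and 1.17 to 1.18% in the control libraries. A two-sided exact permutation test on any single gene whose groups lay apart gives p = 0.1, and with 3 libraries against 3 no smaller p can be had.

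Of the 36 members, 22 lie in a locus that the table gives to more than 1 gene, among them 11 of the 15 that fell, and for these the assignment of reads is uncertain. The 14 members alone in their locus included 4 of the 15, namely GSR, GPX1, GPX4 and PGD. In fits that each left out 1 library, BACH1, MAFF, GSR, FTH1 and UGDH passed in all 6. FTH1 missed when genes of all levels were tested. The sign of the 15 stayed negative in the fits lacking 1 library, which was fixed beforehand because their groups lay apart. The number of members that passed was 6 in the fit lacking knockdown replicate 2, 7 in the one lacking control replicate 3 and 10 or 11 in the other 4. Control replicate 1 was the highest control in 8 of the 15 genes that fell, against 34.2% of all tested genes.

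**Figure D1:**
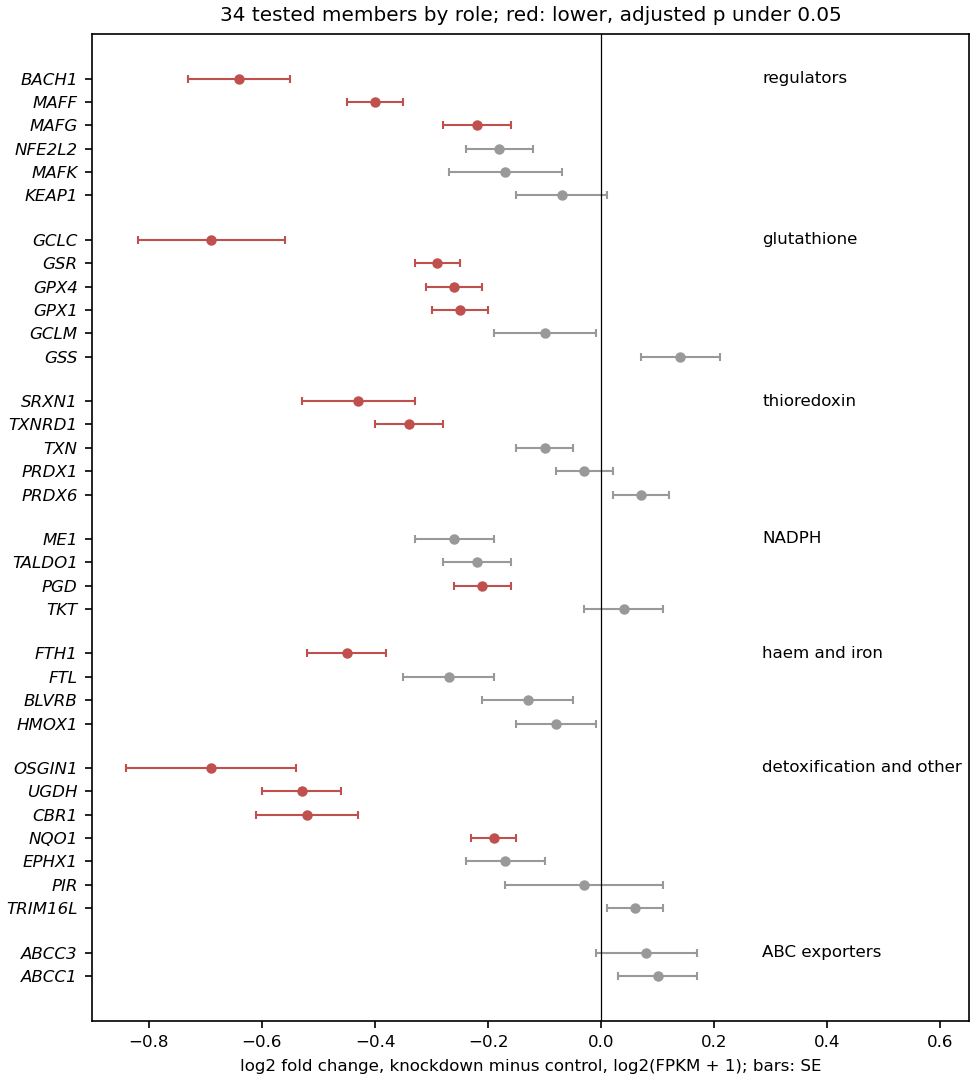
Log2 fold change of the 34 tested members (knockdown minus control on log2(FPKM + 1), bars are standard errors), grouped by role on the vertical axis, with the 15 genes that passed limma at an adjusted p under 0.05 in red. All 15 red points lie left of 0, between -0.69 and -0.19, and the 6 genes right of 0 are grey.

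Among the regulators, the repressor BACH1 and the small MAF genes MAFF and MAFG fell, and the genes of NRF2 and KEAP1 did not pass. BACH1 (ENSG00000156273, in a locus of 10 genes on chromosome 21 from 30565801 to 31312351, hg19) was at 30.8, 29.5 and 34.1 FPKM after knockdown of RBM47 and 56.4, 49.4 and 44.1 FPKM in the controls. The groups lay apart by about 10 FPKM, and the controls were more spread than the knockdown libraries. Its mean was 31.5 ± 2.35 against 50.0 ± 6.18 FPKM (SD, n = 3 each), 63.0% of the control level, with a log2 fold change of -0.64 (SE 0.09, limma, adjusted p = 0.00667).

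MAFF and MAFG encode partners that NRF2 and BACH1 share and that lack a transactivation domain of their own. MAFF (chromosome 22, 38507502 to 38612518, hg19, 2 genes in the locus) was at 21.0, 20.6 and 21.8 FPKM in the knockdown and at 27.5, 27.9 and 29.1 FPKM in the controls. Both groups were tight, and MAFF was left at 75.1% of the control level (log2 fold change -0.40, SE 0.05, limma, adjusted p = 0.00452). MAFG was at 27.0, 26.3 and 26.1 FPKM in the knockdown and at 32.9, 29.3 and 30.9 FPKM in the controls, apart but closer (log2 fold change -0.22, adjusted p = 0.0459), and it missed in all 6 fits lacking 1 library (0.0567 to 0.129). MAFK, the remaining small MAF gene, was at 11.1, 14.3 and 11.9 against 15.5, 13.5 and 13.4 FPKM. Its groups overlapped through knockdown replicate 2 (log2 fold change -0.17, adjusted p = 0.301, limma).

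NFE2L2 was at 97.3, 100.2 and 107 FPKM in the knockdown and at 122, 110.4 and 114 FPKM in the controls. Its groups lay apart, but its log2 fold change of -0.18 did not pass (95% interval -0.31 to -0.05, limma, adjusted p = 0.0794). Its locus holds 8 genes. KEAP1 was at 13.5, 15.8 and 13.3 FPKM in the knockdown and at 16.1, 14.9 and 14.0 FPKM in the controls, with overlapping groups (log2 fold change -0.07, 95% interval -0.27 to 0.12, adjusted p = 0.596). NFE2L2 was the most abundant of the 6 regulators in every library and KEAP1 and MAFK the least abundant, on the FPKM scale.

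**Figure D2:**
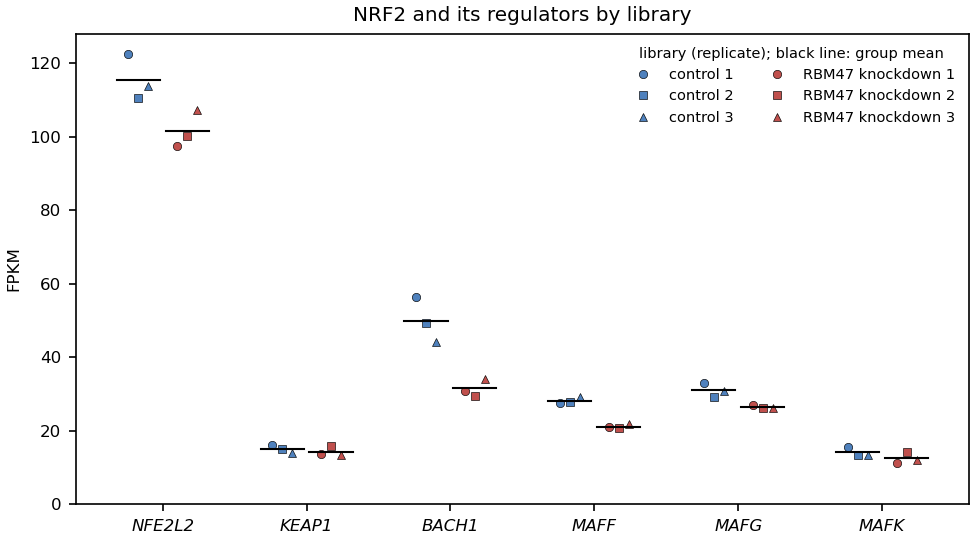
FPKM of the 6 regulators in each library (vertical axis), with control libraries in blue, knockdown libraries in red, a marker shape for each replicate and a black line for the group mean. The red points of NFE2L2, BACH1, MAFF and MAFG lie below all blue points of the same gene, and those of KEAP1 and MAFK overlap them.

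In glutathione metabolism the catalytic subunit of the rate-limiting enzyme, the reductase and 2 peroxidases fell, and the other synthesis genes did not pass. GCLC (ENSG00000001084, chromosome 6, 53362139 to 53481969, hg19, 3 genes in the locus), the catalytic subunit of glutamate-cysteine ligase, was at 30.6, 27.9 and 23.3 FPKM in the knockdown and at 53.0, 39.2 and 41.6 FPKM in the controls. Control replicate 1 stood above the other controls, and every knockdown value was below every control. The mean was 27.3 ± 3.71 against 44.6 ± 7.36 FPKM (SD, n = 3 each), 61.1% of the control level (log2 fold change -0.69, SE 0.13, limma, adjusted p = 0.0176). Lacking knockdown replicate 2, the adjusted p was 0.0528, and with no filter on low levels it was 0.0635.

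GCLM, the modifier subunit of the same enzyme, was at 17.4, 22.0 and 18.3 FPKM in the knockdown and at 19.0, 21.4 and 21.4 FPKM in the controls. Knockdown replicate 2 was the highest of all 6, and the log2 fold change of -0.10 did not pass (95% interval -0.32 to 0.12, limma, adjusted p = 0.526). GSS, which adds glycine in the last step of synthesis, was at 26.2, 26.1 and 25.3 against 21.2, 25.7 and 23.6 FPKM, knockdown against control. It had the most positive log2 fold change of the set, 0.14, which did not pass (adjusted p = 0.263).

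GSR, the reductase that regenerates glutathione from its oxidised form with NADPH, was at 52.7, 51.3 and 51.1 FPKM in the knockdown and at 63.9, 62.3 and 64.7 FPKM in the controls. With both groups within 3 FPKM, its fall of 0.29 on the log2 scale was well outside the spread (SE 0.04, limma, adjusted p = 0.00614). GPX4, the peroxidase that reduces lipid hydroperoxides, was at 266, 259 and 243 FPKM in the knockdown and at 299.5, 304 and 313 FPKM in the controls (log2 fold change -0.26, adjusted p = 0.015). GPX1, the main cytosolic glutathione peroxidase, was at 110.3, 112 and 101 against 125, 127 and 132 FPKM (-0.25, adjusted p = 0.0231). GPX1 and GPX4, both selenoproteins, thus stood at 84.1% and 83.8% of the control level. GPX4 missed in the fits lacking knockdown replicate 2, control replicate 2 or control replicate 3 (limma, adjusted p up to 0.0606), and GPX1 in these and in that lacking control replicate 1 (up to 0.0833). With no filter the adjusted p of GPX1 was 0.0553. GPX2, an epithelial peroxidase of the gut, was low, at 0.0733, 0.0716 and 0.14 FPKM in the knockdown and at 0.460, 0.272 and 0.126 FPKM in the controls. Its mean was under 1 FPKM, and no comparison is made for it.

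In the thioredoxin system the reductase and sulfiredoxin fell, while thioredoxin and the peroxiredoxins did not pass. TXNRD1 (ENSG00000198431, chromosome 12, 104609557 to 104744061, hg19, 4 genes in the locus), which reduces thioredoxin with NADPH, was at 202, 192 and 199.6 FPKM in the knockdown and at 270.3, 232 and 249 FPKM in the controls. The groups lay apart, at 79.0% of the control level (log2 fold change -0.34, SE 0.06, limma, adjusted p = 0.0132). Lacking knockdown replicate 2, its adjusted p was 0.0553. SRXN1, which repairs overoxidised peroxiredoxins, was at 30.9, 31.6 and 27.9 FPKM in the knockdown and at 47.3, 37.1 and 38.6 FPKM in the controls, again with control replicate 1 on top (-0.43, SE 0.10, adjusted p = 0.0285). SRXN1 missed when any 1 knockdown library or control replicate 3 was left out (limma, adjusted p up to 0.0727), and with no filter (0.0868). A further row of that symbol (ENSG00000234516), in the same locus, had 2.93, 0 and 3.13 against 0.001, 0.643 and 0.705 FPKM, overlapping between groups.

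TXN, the gene of thioredoxin itself, was at 209, 202 and 187 FPKM in the knockdown and at 206, 216 and 219 FPKM in the controls (log2 fold change -0.10, 95% interval -0.22 to 0.02, limma, adjusted p = 0.266). PRDX1, a peroxide-reducing peroxiredoxin and the third most abundant gene of the set, ran from 381 to 425 FPKM in the knockdown and from 402 to 426 FPKM in the controls (-0.03, adjusted p = 0.763). PRDX6, which uses glutathione instead of thioredoxin, ran from 122 to 134 against 119.8 to 125 FPKM (0.07, adjusted p = 0.405). The groups of all 3 genes overlapped.

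Of the enzymes around NADPH, 1 of 4 fell. PGD, an NADPH-producing enzyme of the pentose phosphate pathway, was at 110.4, 109 and 99.7 FPKM in the knockdown and at 122, 125 and 122 FPKM in the controls (log2 fold change -0.21, limma, adjusted p = 0.036). The groups lay apart, but PGD missed in all 6 fits lacking 1 library (0.0513 to 0.109). TALDO1 and TKT, which rearrange the sugars of the pathway, were at 56.9 ± 4.16 against 66.2 ± 2.63 FPKM and at 222 ± 15.4 against 216 ± 14.9 FPKM (SD, n = 3 each). ME1, cytosolic malic enzyme, was at 16.8, 15.2 and 16.8 against 18.3, 19.5 and 21.1 FPKM, with groups apart (-0.26, 95% interval -0.42 to -0.09, adjusted p = 0.0589). TALDO1 likewise had groups apart without passing (-0.22, adjusted p = 0.0666), while those of TKT overlapped (0.04, adjusted p = 0.769).

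Iron storage accounted for most of the RNA of the set. FTH1 (ENSG00000167996, chromosome 11, 61717293 to 61735132, hg19, 2 genes in the locus), the ferritin heavy chain, which oxidises iron for storage, was at 2803, 2804 and 3326 FPKM in the knockdown and at 3919, 4177 and 4039.5 FPKM in the controls. Knockdown replicate 3 stood above the other knockdown libraries and below every control, and the mean was 73.6% of the control level (log2 fold change -0.45, SE 0.07, limma, adjusted p = 0.0102). With no filter on low levels its adjusted p was 0.0786. FTH1 has many near-identical pseudogenes, and how shared reads were assigned is not stated in the labels. The table lists 25 of them by symbol, 13 above 0, whose summed level was 179, 197 and 259.5 FPKM in the knockdown and 281, 302 and 287 FPKM in the controls.

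FTL, the ferritin light chain, was at 761, 700.2 and 658 FPKM in the knockdown and at 851, 774 and 937 FPKM in the controls. Its groups lay apart, with a log2 fold change of -0.27 that did not pass (95% interval -0.46 to -0.09, limma, adjusted p = 0.069). HMOX1, haem oxygenase 1, a gene that BACH1 is known to repress, was low at 6.33, 5.92 and 6.03 FPKM in the knockdown and 6.31, 6.92 and 6.32 FPKM in the controls. Its groups overlapped (-0.08, 95% interval -0.26 to 0.09, adjusted p = 0.505). BLVRB, which reduces biliverdin and flavins, ran from 29.8 to 36.2 against 35.6 to 38.0 FPKM (-0.13, adjusted p = 0.302).

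Of the detoxification genes and other targets 4 of 7 fell, and OSGIN1 was among them. OSGIN1 (ENSG00000140961, chromosome 16, 83932731 to 83999937, hg19, 4 genes in the locus), an oxidative stress-induced growth inhibitor, was at 7.45, 8.23 and 6.83 FPKM in the knockdown and at 16.1, 10.3 and 12.3 FPKM in the controls. The controls spread widely but stayed above the knockdown libraries, which held 58.1% of the control mean (log2 fold change -0.69, SE 0.15, limma, adjusted p = 0.0242). UGDH, which makes the UDP-glucuronic acid used for glucuronidation, was at 68.7, 65.4 and 70.4 FPKM in the knockdown and at 106, 88.4 and 103 FPKM in the controls (-0.53, SE 0.07, adjusted p = 0.00535). CBR1, a carbonyl reductase, was at 28.9, 26.2 and 22.5 against 35.1, 38.5 and 38.4 FPKM (-0.52, SE 0.09, adjusted p = 0.0123). UGDH was left at 68.7% and CBR1 at 69.3% of the control level, both with groups apart. OSGIN1 missed when any 1 knockdown library or control replicate 3 was left out (limma, adjusted p up to 0.0692) and with no filter (0.0813), and CBR1 lacking control replicate 3 (0.0513).

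NQO1, a quinone reductase often used as a readout of NRF2 activity, was at 215, 222 and 209 FPKM in the knockdown and at 248, 243 and 248 FPKM in the controls. The groups lay apart, but the fall was small, to 87.4% of the control level (log2 fold change -0.19, SE 0.04, limma, adjusted p = 0.0223). NQO1 missed in 5 of the 6 fits lacking 1 library (up to 0.0781) and passed in that lacking knockdown replicate 3 (0.0469). EPHX1, microsomal epoxide hydrolase, was at 83.7, 83.5 and 71.6 against 89.7, 87.1 and 91.2 FPKM and did not pass (-0.17, adjusted p = 0.143). PIR, an iron-binding nuclear protein, ran from 2.46 to 3.67 FPKM in the knockdown and from 2.73 to 3.23 FPKM in the controls (-0.03, adjusted p = 0.904). TRIM16L, a near copy of TRIM16 whose shared reads are uncertain, ran from 43.4 to 46.2 against 42.9 to 44.1 FPKM (0.06, adjusted p = 0.458).

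The ABC exporters, which pump glutathione and glucuronide conjugates out of the cell, did not pass. ABCC1 ran from 17.8 to 19.1 FPKM in the knockdown and from 15.7 to 17.9 FPKM in the controls (log2 fold change 0.10, 95% interval -0.05 to 0.26, limma, adjusted p = 0.362). ABCC3 ran from 30.6 to 37.2 against 31.3 to 36.1 FPKM (0.08, adjusted p = 0.621). ABCC2 was listed at 0.327 to 0.510 FPKM in the knockdown and at 0.235 to 0.614 FPKM in the controls, too low to be tested.

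**Figure D3:**
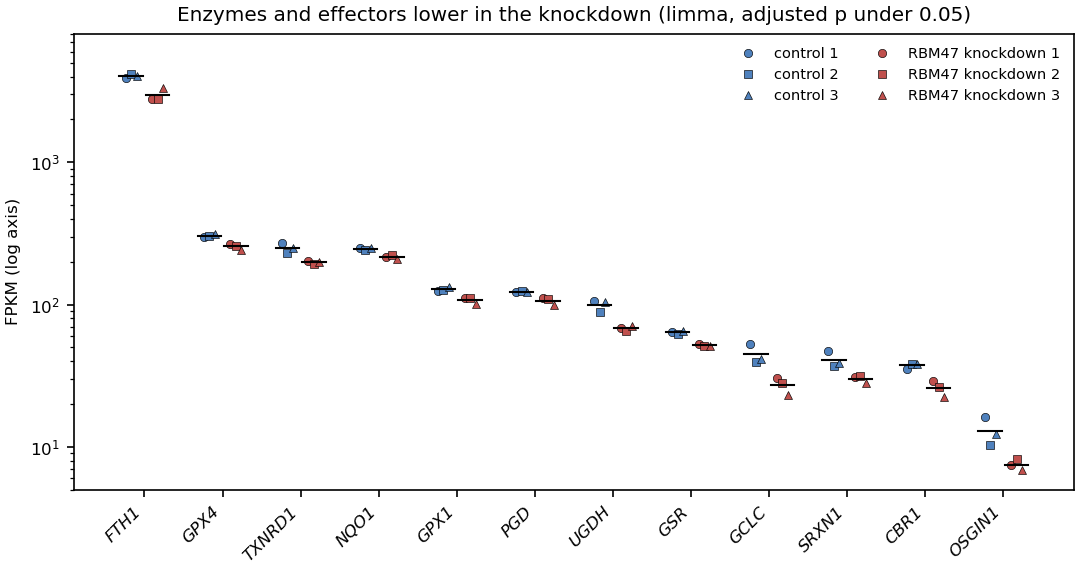
FPKM (vertical log axis) of the 12 enzymes and effectors that were lower in the knockdown, ordered by control mean, with control libraries in blue, knockdown libraries in red, a marker shape for each replicate and a black line for the group mean. In all 12 genes each red point lies below each blue point, from FTH1 at 2803 to 4177 FPKM down to OSGIN1 at 6.83 to 16.1 FPKM, and control replicate 1 stands out upward in GCLC, SRXN1 and OSGIN1.

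Set side by side, the regulators had 3 of 6 genes lower and a median log2 fold change of -0.20, and the other 28 tested members had 12 lower and the same median, -0.20. The glutathione genes had 4 of 6 lower (median -0.25), the detoxification and other targets 4 of 7 (-0.19), the thioredoxin system 2 of 5 (-0.10), haem and iron 1 of 4 (-0.20), the NADPH enzymes 1 of 4 (-0.21) and the exporters 0 of 2 (0.09). Differences between these classes were not tested. In each class at least 1 tested member did not pass.

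Ratios of members within a library do not depend on how libraries were scaled to one another. They were computed for 11 pairs chosen after the values had been seen, each with an exact permutation test (two-sided, 3 libraries a group). The GCLC to GCLM ratio was 1.76, 1.27 and 1.27 in the knockdown and 2.79, 1.83 and 1.94 in the controls (exact p = 0.1, the smallest possible, which no adjustment over 11 pairs can lower). Those groups lay apart by only 0.07, between knockdown replicate 1 and control replicate 2. The GCLC to GSS ratio was 1.17, 1.07 and 0.918 against 2.50, 1.52 and 1.76, and the TXNRD1 to TXN ratio was 0.964, 0.949 and 1.06 against 1.31, 1.08 and 1.13, both with groups apart.

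The NFE2L2 to BACH1 ratio, activator to repressor RNA, was 3.16, 3.39 and 3.15 in the knockdown and 2.17, 2.24 and 2.58 in the controls, higher in every knockdown library (exact p = 0.1). The SRXN1 to PRDX1 and UGDH to EPHX1 ratios were also apart, at 0.0737 ± 0.00129 against 0.0987 ± 0.0166 and at 0.863 ± 0.107 against 1.11 ± 0.0848 (SD, n = 3 each). In contrast, the GPX4 to GPX1 ratio was 2.41, 2.31 and 2.40 against 2.39, 2.40 and 2.37, with means of 2.38 in both groups. The FTH1 to FTL ratio overlapped (3.68, 4.0 and 5.06 against 4.60, 5.40 and 4.31), as did those of NFE2L2 to KEAP1, MAFF to MAFK and MAFG to MAFK (exact p = 0.4, 0.3 and 0.9).

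**Figure D4:**
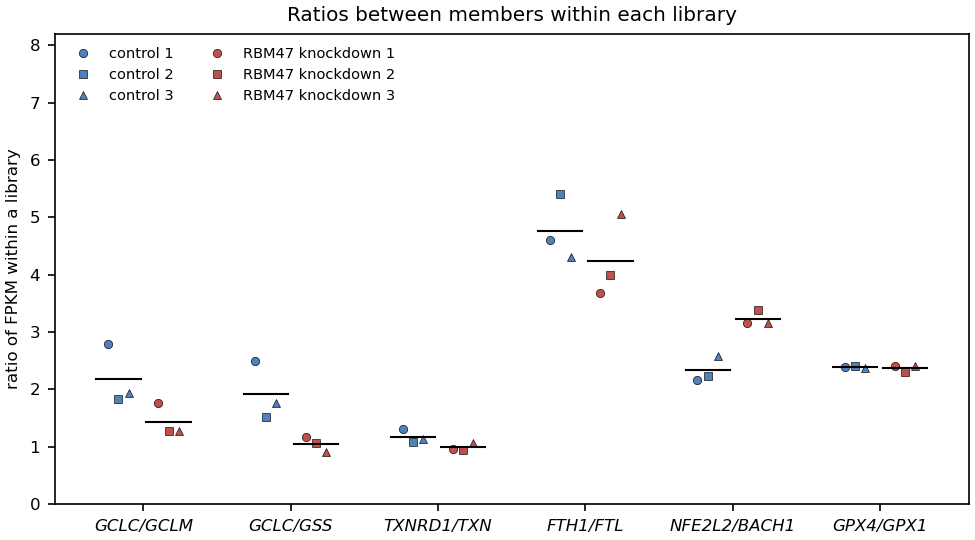
Ratio of the FPKM of 2 members within each library (vertical axis, no unit) for 6 of the 11 pairs, with control libraries in blue, knockdown libraries in red, a marker shape for each replicate and a black line for the group mean. GCLC to GCLM, GCLC to GSS and TXNRD1 to TXN are lower in each knockdown library, NFE2L2 to BACH1 is higher, and FTH1 to FTL and GPX4 to GPX1 overlap.

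Further genes of the pathway, in 4 lists of 63 genes that are not members, mostly did not pass, and those that passed were mostly lower. Of 58 tested, 14 were lower, 2 were higher and 42 did not pass, with a median log2 fold change of -0.08. The 14 were 24.1% of the tested genes of these lists, where 6.34% of all tested genes were lower, and the 2 stood beside 5.10% of all genes higher. Of 8 partners and relatives of NRF2, 2 fell (25.0%) and none rose. SQSTM1, the autophagy receptor that binds KEAP1, was at 138, 134 and 137 FPKM in the knockdown and at 252, 232 and 237 FPKM in the controls (log2 fold change -0.82, limma, adjusted p = 0.000318). NFE2L1, a relative of NRF2 that controls proteasome genes, was at 152, 164 and 154 against 224, 202 and 194 FPKM (-0.39, adjusted p = 0.00827). Both were well apart between groups and passed in each fit without 1 library. SQSTM1 lies in a locus of 8 genes and NFE2L1 in a locus of 2, so the assignment of their reads is uncertain. The same holds for SLC7A11, IDH1, MGST1 and NXN below, in loci of 3, 2, 6 and 4 genes.

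Of 14 tested enzymes and transporters linked to NRF2, 6 fell (42.9%) and none rose. Over all tested genes 6.34% were lower and 5.10% higher. IDH1, cytosolic NADP-dependent isocitrate dehydrogenase, was at 72.8, 71.0 and 68.4 FPKM in the knockdown and at 114, 106 and 112 FPKM in the controls (log2 fold change -0.64, limma, adjusted p = 0.00107). The cystine transporter, made of SLC7A11 and SLC3A2, fell in both subunits, SLC7A11 to 16.3 ± 1.93 FPKM, against 30.6 ± 4.60 in the controls, and SLC3A2 to 282 ± 15.0 FPKM, against 392 ± 16.1 (SD, n = 3 each). Their log2 fold changes were -0.86 and -0.47 (limma, adjusted p = 0.00535 and 0.00298). Thus PGD and IDH1, both sources of cytosolic NADPH, were lower by this threshold. ME1 did not pass, but its log2 fold change of -0.26 was no smaller in size than the -0.21 of PGD. The call of PGD was lost in all 6 fits lacking 1 library.

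Glutathione transferases and related enzymes largely did not pass. Of 21 tested, 2 fell (9.52%, near the 6.34% of all tested genes) and 1 rose, where 5.10% of all tested genes were higher. The other 18 did not pass, and the median was -0.08. The groups nevertheless lay apart in many of the 21. Knockdown values were all lower in 9 (42.9%, against 16.8% of all tested genes) and all higher in 6 (17.3% of all tested genes). CHAC1, which degrades glutathione, stood at 14.1 ± 1.05 FPKM in the knockdown and 22.4 ± 1.31 in the controls (SD, n = 3 each, log2 fold change -0.63, limma, adjusted p = 0.00313). The microsomal transferase MGST1 fell by 0.26 on the log2 scale (adjusted p = 0.0158), and missed in the 3 fits lacking knockdown replicate 2, control replicate 2 or control replicate 3 (up to 0.0629). GPX3, a secreted peroxidase, was at 18.1, 18.1 and 15.6 FPKM in the knockdown and at 12.9, 12.4 and 13.7 FPKM in the controls and so rose, opposite to GPX1 and GPX4 (0.38, adjusted p = 0.02). It missed in 4 fits, those that left out replicate 1 or replicate 2 of either group (up to 0.0744).

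In the list of other thioredoxin, peroxiredoxin, catalase and dismutase genes, 4 of 15 fell (26.7%) and 1 rose. Beside them, 6.34% of all tested genes were lower and 5.10% higher. Catalase (CAT), which breaks down hydrogen peroxide in peroxisomes, was at 12.6, 12.5 and 11.5 FPKM in the knockdown and at 18.1, 19.2 and 19.0 FPKM in the controls (log2 fold change -0.58, limma, adjusted p = 0.0025). The mitochondrial peroxiredoxin PRDX3 was at 39.1, 39.1 and 40.8 against 54.4, 61.3 and 60.1 FPKM (-0.55, adjusted p = 0.0024), and PRDX5 at 197, 190 and 178 against 224, 229 and 238 FPKM (-0.29, adjusted p = 0.012). The call of PRDX5 was lost without control replicate 3 (0.0515). NXN, nucleoredoxin, fell by 0.38 on the log2 scale (limma, adjusted p = 0.0263). TXNIP, which inhibits thioredoxin and is named because it alone rose, was higher by 0.27 (limma, adjusted p = 0.0443). NXN and TXNIP missed in every fit without 1 library (0.0502 to 0.0801 and 0.0504 to 0.128).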

How the data were processed

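Per the labels' protocols, TRIzol RNA went into stranded, polyadenylated RNA libraries. The authors deposited FPKM in 1 table. TopHat 1.4.1 and Cuffdiff 2.2.0 were used on hg19, per the submitters' processing notes, which give no settings; the scaling between libraries and the use of strand are not given in the sources. FPKM cannot be tested as counts, and fragment depth is unknown. Relative depth is the most frequent ratio between libraries over genes under 0.3 FPKM that are alone in their locus. Loci are the table's, printed counted from 1.

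Knockdown and control were compared on log2(FPKM + 1) with limma 3.58.1 in R 4.3.3 (trended prior). Tested were the 14419 genes whose mean reached 1 FPKM, with Benjamini-Hochberg adjustment over all of them. Fold changes are on this scale and understate those of low genes. Members and lists were chosen with earlier results of these data known, so that counts over them are descriptions. Named were all members, and in each further list up to 4 genes past the threshold with the largest absolute change; TXNIP was named after its value was seen, and 1 gene that the rule names is not reported here. Alternatives were other pseudocounts (0.5 and 0.1), filters, scalings, limma without trend or with array weights, a replicate block, and leaving out each library. Promoter sequences are RefSeq's, in GRCh38.p14. Plots used matplotlib 3.10.9.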

Additional observations from a re-analysis of the deposited data

How the results depend on the processing

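The 15 members lower in the knockdown became 8 with no filter (without MAFG, GCLC, GPX1, SRXN1, PGD, FTH1 and OSGIN1) and 10 in limma without trend (without MAFG, GPX1, SRXN1, PGD and NQO1), and 12 to 17 with the other pseudocounts, filter, scalings and weights. No member was higher in any of these fits. In fits that left out 1 library the number ran from 6 to 11, and the count over all genes, 1650, ran from 679 to 1288. That count was 916 with no filter, which tests 26591 genes, and 837 with the replicate block. Scaling to the same total turned its split from 914 lower and 736 higher to 786 lower and 914 higher, while the members stood at 14 lower. The members' median, -0.20, lay between -0.22 and -0.162 in all fits. Same-numbered libraries showed no clear pairing: their deviations from the group means correlated at 0.0187, -0.0961 and 0.0772. Only replicate 3 correlated best with its own number. Knockdown replicate 1 correlated best with control replicate 2 (0.0597), and knockdown replicate 2 with control replicate 1 (0.0905). Still, these values cannot exclude pairing. With the replicate block 10 members were lower, without MAFG, GPX1, GPX4, PGD and NQO1. MAFG was also lost with 5 other settings. ME1 passed at a mean of at least 5 FPKM and with array weights, NFE2L2 with array weights. Only uncalled members changed sign, and in the fits without 1 library the called members, all with groups apart, could not. PRDX1 lay at 0.05 with quantile normalization. Over the fits without 1 library PRDX1 ran from -0.06 to 0.02, TKT from -0.01 to 0.09 and PIR from -0.16 to 0.06. The causes were not tested. GPX2 and ABCC2 lay under the filter of 1 FPKM, and the number of fragments behind their values is unknown.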
